A study of Mus musculus with 4 samples.

Results

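The genes described here build the chondroitin sulfate proteoglycan matrix around glial precursors and neurons, and were taken from a table of read counts by their symbols. They were Cspg4, Cspg5, Ptprz1, Vcan, Bcan, Ncan, Acan, Tnr, Tnc and Hapln1, which make 10 of the 22608 genes in the table. The count table held 4 libraries of polyadenylated RNA from mouse neural stem cells (NSCs), the common source of neurons and glia, after induction of oligodendrocyte precursor cells (OPCs). The NSCs were bought cells from the cortex of embryonic CD-1 mice and were expanded with EGF and FGF (20 ng/ml each). All 4 libraries came from cells that carried a lentiviral short hairpin RNA, were selected with puromycin, and were then differentiated for 3 days with the cytokine CNTF (20 ng/ml) and the thyroid hormone T3 (40 ng/ml). The 2 control libraries carried a hairpin to luciferase, an insect enzyme that mouse cells lack, and the 2 knockdown libraries one to the long non-coding RNA lnc-OPC. The comparison asks which transcripts change when lnc-OPC is reduced during OPC formation. Both knockdown libraries carried the same hairpin, so its target and any other transcript it may reach cannot be told apart, and the level of lnc-OPC itself was not analysed here. The labels call the repeats biological replicates but do not say whether the cells were thawed or infected separately, so the p-values measure the spread between these libraries.

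Chondroitin sulfate proteoglycans are core proteins that carry long, negatively charged sugar chains. The lecticans (aggrecan, versican, neurocan and brevican) bind the polysaccharide hyaluronan at one end, where link proteins such as Hapln1 lock the contact, and bind tenascins at the other end, so that tenascin-R can cross-link them into a mesh. In mature brain that mesh condenses into perineuronal nets around certain neurons, and in immature brain a looser form fills the space between cells. OPCs contribute to it, and the membrane proteoglycan NG2, the product of Cspg4, is the classical surface marker of these cells.

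Between 46144779 and 50098577 reads per library fell in genes. Levels are given as CPM, the counts of a gene per 1000000 reads of TMM-scaled library size, and 3 reads corresponded to 0.0597 to 0.0642 CPM. Of the 14090 genes that passed the filter on low counts, edgeR called 3309 higher in the knockdown (23.5% of those tested) and 3276 lower (23.3%) at an adjusted p under 0.05. With scaling by library size alone, the split was 2677 higher and 3964 lower. A total of 318 genes (2.26%) were called lower with a change over 2-fold. In 72.6% of the tested genes the values of the control and knockdown libraries did not overlap. These shares are the background against which each count of genes is read. The genes described here and the related lists given below were chosen with earlier results of these data known, so such comparisons are descriptive.

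The members together took a smaller share of the gene reads in the knockdown. It was 0.423% and 0.426% in the control libraries, against 0.352% and 0.338% in the knockdown libraries, so the groups did not overlap. In mean CPM the largest falls were those of Ncan (842 to 504) and Tnr (348 to 172). Ptprz1, the member with the most reads, went from 1693 to 1662 CPM, and the means of Tnc and Cspg4 were higher in the knockdown. In a culture measured in bulk, fewer cells of a type and less RNA per cell cannot be told apart. Of the 10 members, 8 passed the filter, of which 5 were called lower (Cspg5, Vcan, Bcan, Ncan, Tnr) and 1 higher (Tnc). Of all tested genes, 23.3% were called lower and 23.5% higher. Cspg4 and Ptprz1 were not called, and Acan and Hapln1 had too few reads to be tested. The median log2 fold change of the 8 was -0.20, beside 0.00 over all genes tested. For 7 of the 8 the control and knockdown libraries did not overlap, beside the 72.6% of all tested genes. Tnr was the 1 of 8 with a called change over 2-fold, beside 2.26% of all genes in that direction.

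**Figure D1:**
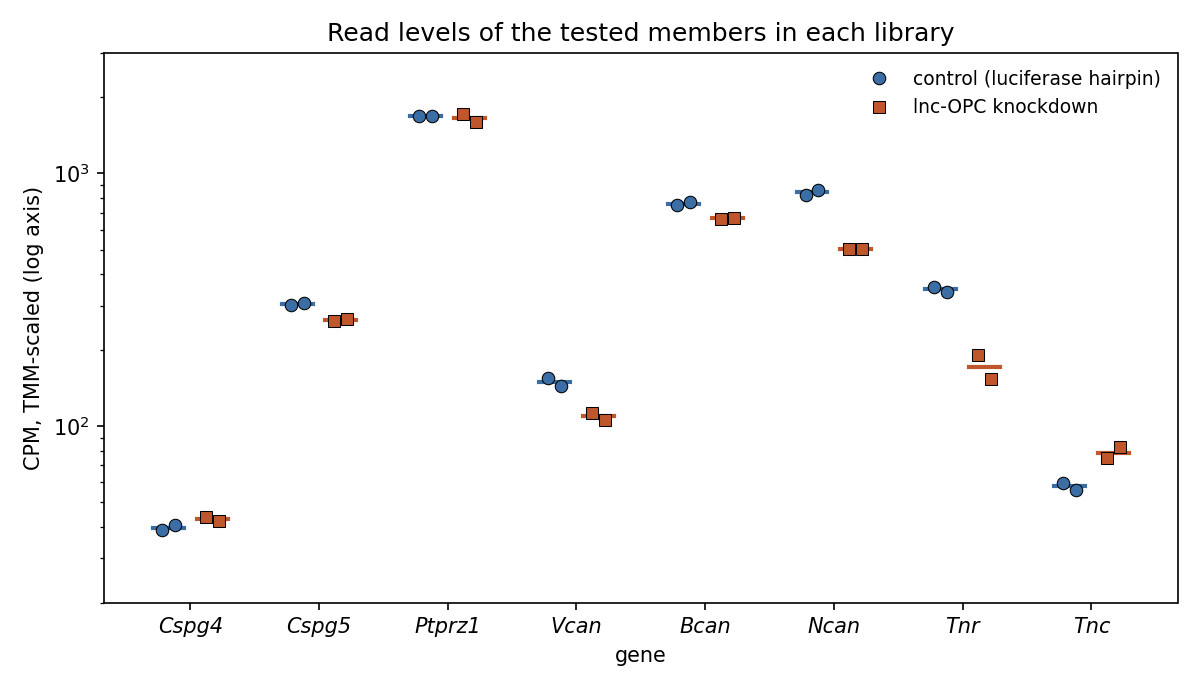
Levels of the 8 tested members in each library, in CPM after TMM scaling on a log axis, with circles for the 2 control libraries, squares for the 2 knockdown libraries and a bar at each group's mean. Ncan and Tnr show the widest gaps between groups, Tnc is the member with both knockdown libraries well above both controls, and the knockdown libraries of Ptprz1 lie on either side of its controls.

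Longer transcripts collect more reads, so levels were compared between genes only per kilobase of transcript, using the longest transcript of each gene that carries a RefSeq identifier. On that scale the order in the control was Bcan at 242 ± 4.97 CPM per kb (SD, n = 2), Ptprz1 at 209.8 ± 0.0134, Ncan at 117 ± 3.56, Cspg5 at 78.9 ± 1.00, Tnr at 28.5 ± 1.04, Vcan at 12.01 ± 0.586, Tnc at 8.14 ± 0.383 and Cspg4 at 4.88 ± 0.148. Neighbours in this order did not overlap between libraries. Bcan ranked 125 and Ptprz1 141 among the 12201 tested genes with a length, by their mean over all libraries, and the median of those genes was 10.2 CPM per kb. Cspg4, the gene for the OPC marker NG2, ranked 8056, below that median. In the knockdown, Bcan (211 and 212 CPM per kb) and Ptprz1 (213 and 199) overlapped. Vcan (9.08 and 8.51 CPM per kb in the knockdown libraries) and Tnc (10.5 and 11.6) changed places. The order rests on the transcript chosen, since Vcan has 5 such transcripts and Ptprz1 has 3 of different lengths, and the counts do not say which were used.

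Among the lecticans, 3 were abundant and all 3 were lower in the knockdown, by different amounts. Neurocan, the product of Ncan, is a secreted lectican of developing brain. Its level was 824 and 859.8 CPM in the control libraries, against 504 and 504 CPM in the knockdown libraries. The knockdown libraries lay within 1 CPM of each other and far below both controls. The log2 fold change was -0.74 (SE 0.03), a 1.67-fold lower level, with an adjusted p of 1.12e-20 by edgeR. Versican, the product of Vcan, is made by OPCs and immature glia and occurs in several splice forms. Its level was 154 and 144 CPM in the control, against 113 and 106 CPM in the knockdown libraries. Every knockdown library was below every control, with a log2 fold change of -0.45 (SE 0.04) and an adjusted p of 1.94e-11. Brevican, the product of Bcan, is the short lectican of glial cells. It stood at 747 and 769 CPM in the control, against 662 and 666 CPM in the knockdown libraries. The groups did not overlap, but the change was small, at -0.19 on the log2 scale (SE 0.03, adjusted p 6.53e-07). The 95% intervals of the log2 fold change of Ncan (-0.80 to -0.68), Vcan (-0.53 to -0.37) and Bcan (-0.25 to -0.14) did not overlap each other.

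Because the changes were unequal, the make-up of the lectican reads shifted within each library, a measure that does not depend on scaling between libraries. Ncan made up 47.7% of lectican reads (95% Wilson interval 47.4% to 48.1%) and 48.5% (48.2% to 48.8%) in the control libraries. In the knockdown libraries it made up 39.4% (39.0% to 39.8%) and 39.5% (39.1% to 39.9%). The share of Bcan lay higher in the knockdown, at 43.3% and 43.4% in the control, against 51.8% and 52.2% in the knockdown libraries. The ratio of Ncan to Bcan reads was 1.10 and 1.12 in the control, against 0.761 and 0.757 in the knockdown, while per kilobase Bcan was above Ncan in all 4 libraries. The share of Vcan overlapped between groups, at 8.95% and 8.12% against 8.82% and 8.29%. The intervals cover counting error only, and with 2 libraries per group the smallest two-sided p that an exact permutation test of such a share allows is 0.333.

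**Figure D2:**
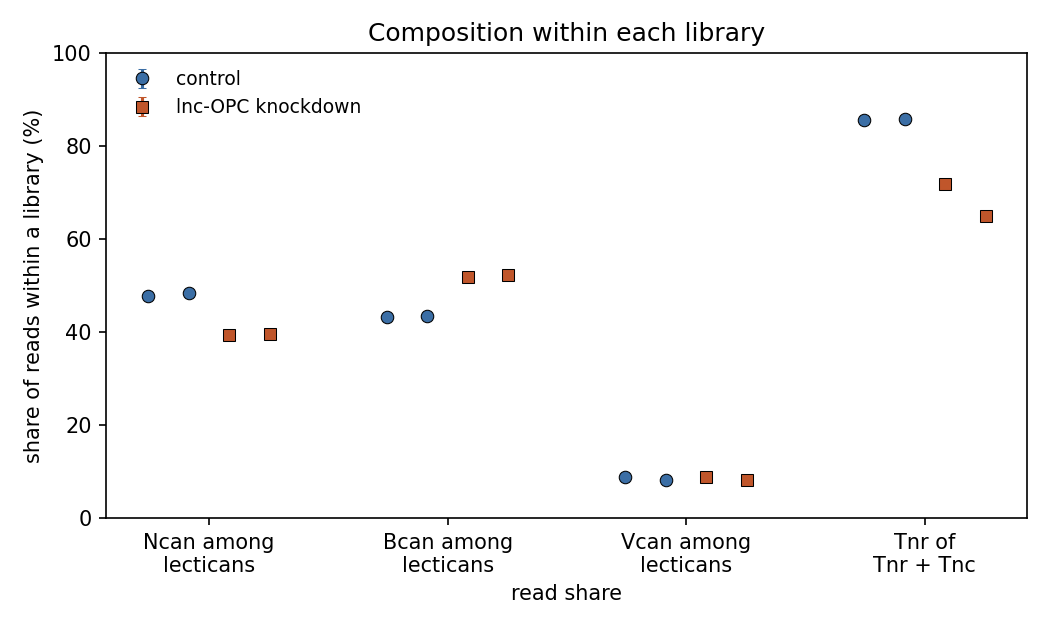
Share of reads within each library (%), for Ncan, Bcan and Vcan among all lectican reads and for Tnr among the reads of Tnr and Tnc together, with circles for control and squares for knockdown libraries. Vertical bars are 95% Wilson intervals and are mostly smaller than the symbols. Ncan made up 47.7% and 48.5% of lectican reads in the control, against 39.4% and 39.5% in the knockdown, Vcan overlapped between groups, and the 2 knockdown libraries differ in their share of Tnr.

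Aggrecan, the product of Acan and the leading lectican of mature perineuronal nets, was close to undetected. The control libraries held 1 and 0 of its reads and the knockdown libraries 3 and 7, which is up to 0.0111% of lectican reads. The ratio of knockdown to control was 9.84, with a counting interval of 1.40 to 427, and rests on 11 reads in all. When the gene was tested with no filter on low counts, its adjusted p was 0.127 in edgeR. Hapln1, the link protein, had 1 and 0 reads in the control, against 3 and 0 in the knockdown libraries, so both groups were at or under the floor of 3 reads per library and no fold is given. The other link proteins were low as well. Hapln2 had 2 and 5 reads in the control, against 0 and 0 in the knockdown libraries, and Hapln3 had 2 and 2 against 1 and 0. Hapln4, which partners brevican at synapses, was the only link protein that passed the filter, with 116 and 109 reads in the control, against 110 and 134 in the knockdown libraries (log2 fold change 0.09, adjusted p 0.741). In the RefSeq gene order of the mouse assembly GRCm38.p6, Vcan is a neighbour of Hapln1, Bcan of Hapln2, Ncan of Hapln4 and Acan of Hapln3. In all 4 neighbouring pairs, then, the link protein was at 134 reads or fewer, while 3 of the 4 lecticans had at least 5229 reads in every library, on counts not scaled for length.

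The tenascins moved in opposite directions. Tenascin-R, the product of Tnr, is made by oligodendrocyte lineage cells and some neurons, and its trimers cross-link lecticans in perineuronal nets. Its level was 357 and 339 CPM in the control, against 190 and 154 CPM in the knockdown libraries. Both knockdown libraries were well below both controls, but they also differed from each other by more than the controls did. The log2 fold change was -1.02 (SE 0.15, 95% interval -1.60 to -0.43), a 2.02-fold lower level. Its adjusted p was 0.0363 in edgeR and rose to 0.0577 with no filter on low counts. The call was also lost without either control library. Other scalings or a filter of 1 CPM in 2 libraries gave 0.0335 to 0.0363. Much smaller values came from DESeq2 (1.85e-09), an edgeR fit that was not robust (3.55e-11) and a replicate block (5.9e-08). Over the 11 alternatives tried, the log2 fold change ran from -1.18 to -0.87. Tenascin-C, the product of Tnc, is made by neural stem cells, astrocytes and glial progenitors. Its level was 59.7 and 55.9 CPM in the control, against 74.5 and 82.5 CPM in the knockdown libraries. The groups did not overlap, and the log2 fold change was 0.44 (SE 0.05), a 1.36-fold higher level with an adjusted p of 5.21e-09. Tnr supplied 85.7% (95% Wilson interval 85.2% to 86.1%) and 85.8% (85.3% to 86.3%) of the reads of both tenascins in the control libraries. In the knockdown libraries it supplied 71.9% (71.1% to 72.6%) and 65.0% (64.2% to 65.9%). The ratio of Tnr to Tnc reads was thus 5.97 and 6.06 in the control, against 2.56 and 1.86 in the knockdown. These shares and ratios are not scaled for length, and the Tnr transcript is the longer (12.2 kb, against 7.1 kb for Tnc). Per kilobase, Tnr was at 29.2 and 27.8 CPM and Tnc at 8.41 and 7.87 CPM in the control libraries. In the knockdown libraries the 2 were closer, with Tnr at 15.6 and 12.6 and Tnc at 10.5 and 11.6 CPM per kb. The remaining tenascins were near the detection limit, and Tnn (log2 fold change -0.86) and Tnxb (-0.40) were not called.

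**Figure D3:**
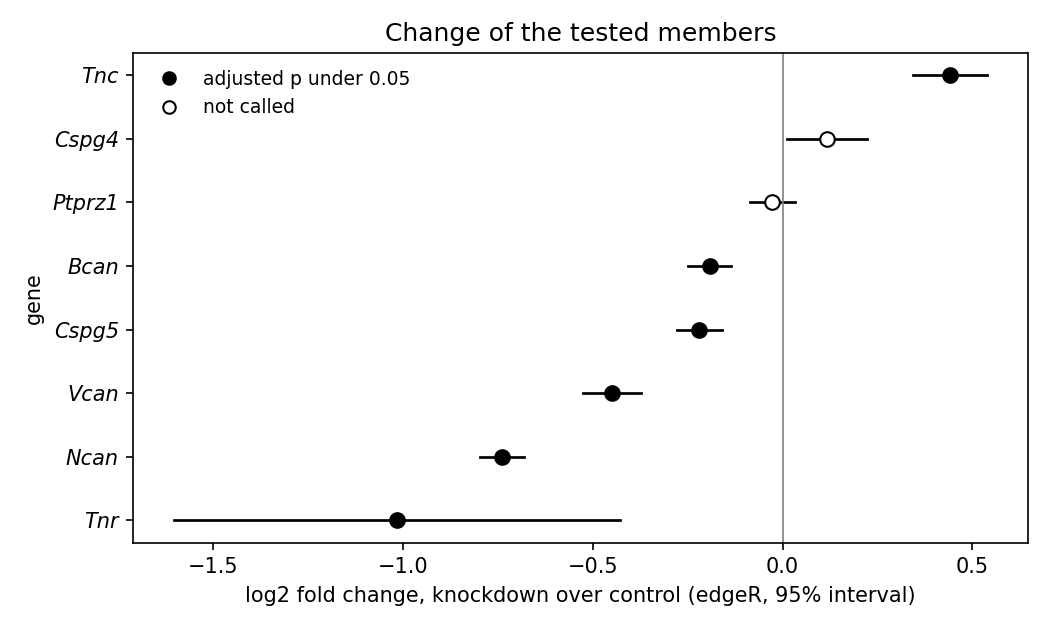
Log2 fold change of each tested member, knockdown over control, with its 95% interval from edgeR over 2 libraries per group. Filled points have an adjusted p under 0.05 and open points do not. Tnc lies above 0 at 0.44, Ptprz1 and Cspg4 were not called, and the interval of Tnr (-1.60 to -0.43) is the widest.

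The promoters of Ncan, Tnr, Vcan and Tnc are shown because these were the members with the largest changes, the first 3 downward and Tnc upward. Each is the stretch of 250 bases before the transcription start in the RefSeq annotation of GRCm38.p6, written 5′ to 3′ on the gene's strand and ending at the base next to the start. Such a stretch was found for 9 of the 10 members, and Cspg5 was not among them. A set of 8 words was searched on both strands, and every match is in capitals. They included CAGNTG (a form of the E-box, which factors such as Olig2 bind), ACAAAG and AACAAT (Sox factors) and TTCNNNGAA (STAT factors). The others were AGGTCA (nuclear receptors such as that for T3), the palindromic word of NFI factors, TATAAA (the TATA box) and CCAAT. Other forms of the E-box were not searched. The words can share bases (CCAAT can fall within the NFI word), but no matches overlapped in the sequences printed. The stretches lie at chr8:70120845-70121094 (minus strand) for Ncan, chr1:159523519-159523768 (plus strand) for Tnr, chr13:89742513-89742762 (minus strand) for Vcan and chr4:64047016-64047265 (minus strand) for Tnc.
Ncan: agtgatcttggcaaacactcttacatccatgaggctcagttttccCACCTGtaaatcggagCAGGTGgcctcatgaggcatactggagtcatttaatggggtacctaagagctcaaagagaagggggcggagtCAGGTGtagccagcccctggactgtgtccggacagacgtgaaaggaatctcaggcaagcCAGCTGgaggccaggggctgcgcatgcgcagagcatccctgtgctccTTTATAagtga
Tnr: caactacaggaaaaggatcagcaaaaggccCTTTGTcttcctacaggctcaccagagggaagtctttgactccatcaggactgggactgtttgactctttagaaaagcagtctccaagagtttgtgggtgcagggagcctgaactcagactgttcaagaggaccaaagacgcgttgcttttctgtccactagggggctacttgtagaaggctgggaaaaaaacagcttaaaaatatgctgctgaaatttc
Vcan: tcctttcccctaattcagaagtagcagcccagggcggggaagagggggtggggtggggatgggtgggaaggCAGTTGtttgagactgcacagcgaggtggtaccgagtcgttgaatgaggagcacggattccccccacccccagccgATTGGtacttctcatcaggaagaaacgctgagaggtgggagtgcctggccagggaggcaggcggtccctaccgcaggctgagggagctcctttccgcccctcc
Tnc: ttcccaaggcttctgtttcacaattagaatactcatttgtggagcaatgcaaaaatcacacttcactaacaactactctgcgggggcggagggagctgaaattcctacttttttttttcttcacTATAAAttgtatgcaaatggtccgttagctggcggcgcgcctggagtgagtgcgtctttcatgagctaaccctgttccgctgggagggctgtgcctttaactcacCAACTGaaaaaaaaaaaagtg

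The Ncan promoter held 4 matches to CAGNTG, a number reached by 184 of the 32841 mouse promoters in the table (0.560%), and a TATAAA word on the opposite strand that begins 11 bases before the start. At least 1 CAGNTG is common, in 44.8% of promoters, and 4 of the 9 members had one. The Tnr promoter had a single match, to ACAAAG, which 16.5% of promoters hold. It was the only one of the 9 members with that word. The Vcan promoter held 1 CAGNTG and 1 CCAAT (33.9% of promoters). Tnc, which changed the other way, also held 1 CAGNTG, and a TATAAA word (12.4% of promoters) 126 bases before its start, the outer of 2 starts listed for the gene. AACAAT (9.43% of promoters), TTCNNNGAA (7.02%), AGGTCA (14.0%) and the NFI word (0.0365%) had no match in the 9. A match to so short a word is a description of the sequence and not a binding site, and binding was not measured in these libraries.

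Of the 3 membrane-bound members, Cspg5 was called lower, and Ptprz1 and Cspg4 were not called. Ptprz1 encodes a receptor tyrosine phosphatase whose outer part carries chondroitin sulfate and is also secreted as phosphacan. It had the most reads of the members, with 1693 and 1693 CPM in the control, against 1720 and 1603 CPM in the knockdown libraries. The knockdown libraries lay on either side of the controls. The log2 fold change was -0.03, with a 95% interval of -0.09 to 0.03 and an adjusted p of 0.472. Cspg5 encodes neuroglycan C, a membrane proteoglycan of neurons and glial precursors. It stood at 303 and 308 CPM in the control, against 259.8 and 265 CPM in the knockdown libraries. The groups did not overlap, with a log2 fold change of -0.22 (SE 0.03) and an adjusted p of 1.38e-07. Its ratio to Bcan reads was 0.405 and 0.400 in the control, against 0.392 and 0.398 in the knockdown libraries.

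Cspg4, which encodes NG2, had 38.8 and 40.5 CPM in the control, against 43.8 and 42.2 CPM in the knockdown libraries. All knockdown values were above the controls, but the log2 fold change of 0.12 (95% interval 0.01 to 0.22) had an adjusted p of 0.0628 and was not called. Pdgfra, the growth factor receptor that marks OPCs together with NG2, was called lower, with a log2 fold change of -0.36 (adjusted p 1.45e-08). The ratio of Cspg4 to Pdgfra reads was 0.326 and 0.340 in the control, against 0.449 and 0.483 in the knockdown libraries. NG2 is also made by pericytes, the contractile cells of small vessels. Pdgfrb and Kcnj8, both pericyte markers, were named after their values were seen and were called in opposite directions. Pdgfrb was at 9.48 and 8.00 CPM in the control, against 0.367 and 0.485 CPM in the knockdown libraries (log2 fold change -4.35, adjusted p 4.51e-18). Kcnj8, at 0.179 and 0.128 CPM, against 0.551 and 0.768 CPM, was higher (2.08, adjusted p 0.00133), but lost its call without control replicate 2 (adjusted p 0.056, with a range of 0.000714 to 0.056 over its alternatives). Of the 10 pericyte and fibroblast markers, a list that includes Cspg4, 8 were under 1 CPM in every library and Dcn and Lum had no reads.

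Markers of cell types moved between the groups alongside these genes. For every list from here on, the shares of all tested genes were 23.3% called lower and 23.5% called higher. Of 12 OPC markers all passed the filter, 10 were lower and 0 higher, and their summed level was 3090 and 3112 CPM in the control, against 2146 and 2076 CPM in the knockdown libraries. Of 12 oligodendrocyte markers 10 were lower and 0 higher, with sums of 1275 and 1159 against 698 and 670.1 CPM. Astrocyte markers, of which 11 of 12 were tested, gave 6 higher and 3 lower, and sums of 5443 and 5537 against 7955 and 8044 CPM. The 10 neural stem cell markers gave 5 higher and 3 lower, with sums of 13700 and 13550 against 16340 and 16660 CPM. Vim alone carried that rise, since the other 9 summed to 5103 and 4910 CPM in the control, against 4765 and 4655 CPM. The 9 tested neuron markers gave 4 higher and 2 lower, with sums of 1085 and 1118 against 1214 and 1194 CPM. Here too 1 gene, Mtap2, carried the rise, and the other 9 of the list summed to 276 and 293 CPM, against 254 and 250.5 CPM. The OPC and astrocyte sums kept their direction without the gene that added most to the difference (Gpr17 and Gfap). Microglia markers summed to at most 1.01 CPM in any library, with Cx3cr1, Tmem119, C1qa, C1qb and C1qc at 0 in all. Endothelial markers summed to 149 and 134 CPM against 87.3 and 81.3 CPM, with 3 of 4 tested called lower. Nearly all of that sum came from Kdr (78.3 and 73.2 CPM in the control) and Slco1a4 (68.8 and 58.3 CPM), while 7 of the 10 were under 1 CPM in every library and Cldn5 and Cdh5 were at 0. The part of these shifts in the results on the matrix genes was not tested.

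The enzymes that build and sulfate the sugar chains did not move as a block. Of 16 genes for chain assembly 2 were called higher and 5 lower, with a median log2 fold change of -0.02. Ugdh, which makes the UDP-glucuronate used in every chain, fell from 126 and 126 CPM in the control to 84.5 and 81.0 CPM in the knockdown libraries (log2 fold change -0.61, adjusted p 1.16e-15). Ugp2, which makes the UDP-glucose from which that sugar derives, rose from 166 and 163 to 196 and 195 CPM (0.25). The chain-polymerising factors Chpf2 (-0.27) and Chpf (0.21) were called in opposite directions.

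Of the 15 tested genes that sulfate or otherwise modify the chains, 3 were higher and 6 lower (median -0.05). Chst3, a chondroitin 6-O-sulfotransferase, fell from 37.7 and 41.3 CPM to 24.4 and 26.1 CPM (log2 fold change -0.64, adjusted p 1.03e-10). Chst7, which also adds 6-O-sulfate, rose from 25.5 and 26.8 CPM to 40.5 and 41.8 CPM (0.65, adjusted p 1.64e-11). These 2 enzymes with the same kind of product were thus called in opposite directions. Chst11, a 4-O-sulfotransferase (-0.36), and Ust, the uronyl 2-O-sulfotransferase (-0.81), were called lower.

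Hyaluronan, the backbone to which lecticans attach, is made by Has enzymes. Of 13 tested genes for its synthesis, turnover and receptors, 3 were higher and 2 lower (median -0.06). Has2 fell from 11.3 and 11.6 CPM to 8.24 and 7.54 CPM (log2 fold change -0.53, adjusted p 5.25e-05), and Itih5, an inter-alpha-trypsin inhibitor heavy chain that binds hyaluronan, fell from 44.8 and 46.7 to 23.1 and 23.9 CPM (-0.96). Cd44, the main hyaluronan receptor, rose from 57.8 and 56.0 to 81.7 and 89.3 CPM (0.59). The gene listed as 9930013L23Rik, now named Cemip, which takes part in hyaluronan breakdown, rose from 48.8 and 41.8 to 66.3 and 73.3 CPM (0.62).

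Among the related lists with any call, that of receptors for the chondroitin sulfate proteoglycans had calls in 1 direction only. It was a broad list, which also took in proteins that act together with such receptors. Of its 9 tested genes 6 were lower and 0 higher, beside 23.3% of all genes called lower. Ptprf (log2 fold change -0.0017), Rtn4r (0.11) and Rtn4rl1 (-0.12) were not called. The median of the list was -0.13, and most of the called changes were small. Ptprs, a receptor phosphatase that binds chondroitin sulfate, was at 1267 and 1331 CPM in the control, against 1171 and 1201 CPM in the knockdown libraries (log2 fold change -0.13, adjusted p 0.000277). Lrp1 (-0.25) and Tnfrsf19 (-0.26) were also called lower. Rtn4rl2, a Nogo receptor homologue, changed more, from 6.33 and 6.29 to 2.79 and 3.09 CPM (-1.10, adjusted p 2.25e-07).

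Of 14 tested partners that tenascins and Ptprz1 bind, 7 were higher and 3 lower, with a median of 0.15, beside 23.5% of all genes called higher. Nrcam, a neuronal and glial adhesion molecule, rose from 184 and 179 CPM to 361 and 365 CPM (log2 fold change 1.00, adjusted p 8.13e-24). Ptn encodes pleiotrophin, a secreted ligand of Ptprz1, and rose from 711 and 739 to 988 and 1002 CPM (0.46, adjusted p 2.64e-15), while its receptor Ptprz1 was not called. The integrin subunit Itgav (0.82), which takes part in binding tenascin-C, and the adhesion molecule Chl1 (0.49) were also called higher.

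Proteases that cut the matrix, and their inhibitors, gave 6 higher and 5 lower of 19 tested (median -0.01). Adam10, a membrane sheddase, rose from 145 and 150.1 to 320.3 and 316 CPM (log2 fold change 1.11, adjusted p 1.32e-24). Mmp14, a membrane-type matrix metalloproteinase, fell from 82.2 and 82.3 to 41.6 and 41.4 CPM (-0.99, adjusted p 5.06e-19). Timp3, an inhibitor of metalloproteinases, was lower (-0.61), and Adamts1, which cleaves aggrecan and versican, was higher (0.37).

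Other proteoglycans of the membrane and matrix were called in both directions, at 8 higher and 9 lower of 23 tested (median -0.01). Agrn, the heparan sulfate proteoglycan agrin, fell from 1203 and 1231 to 684 and 691 CPM (log2 fold change -0.82, adjusted p 2.12e-22). Prelp, a small leucine-rich proteoglycan, fell from 108 and 107 to 66.6 and 67.7 CPM (-0.68). Gpc4, a glypican secreted by astrocytes, rose from 467 and 435 to 691 and 691 CPM (0.62, adjusted p 8.4e-18), and Sdc2, a syndecan, rose from 204 and 192 to 293 and 289 CPM (0.56).

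**Figure D4:**
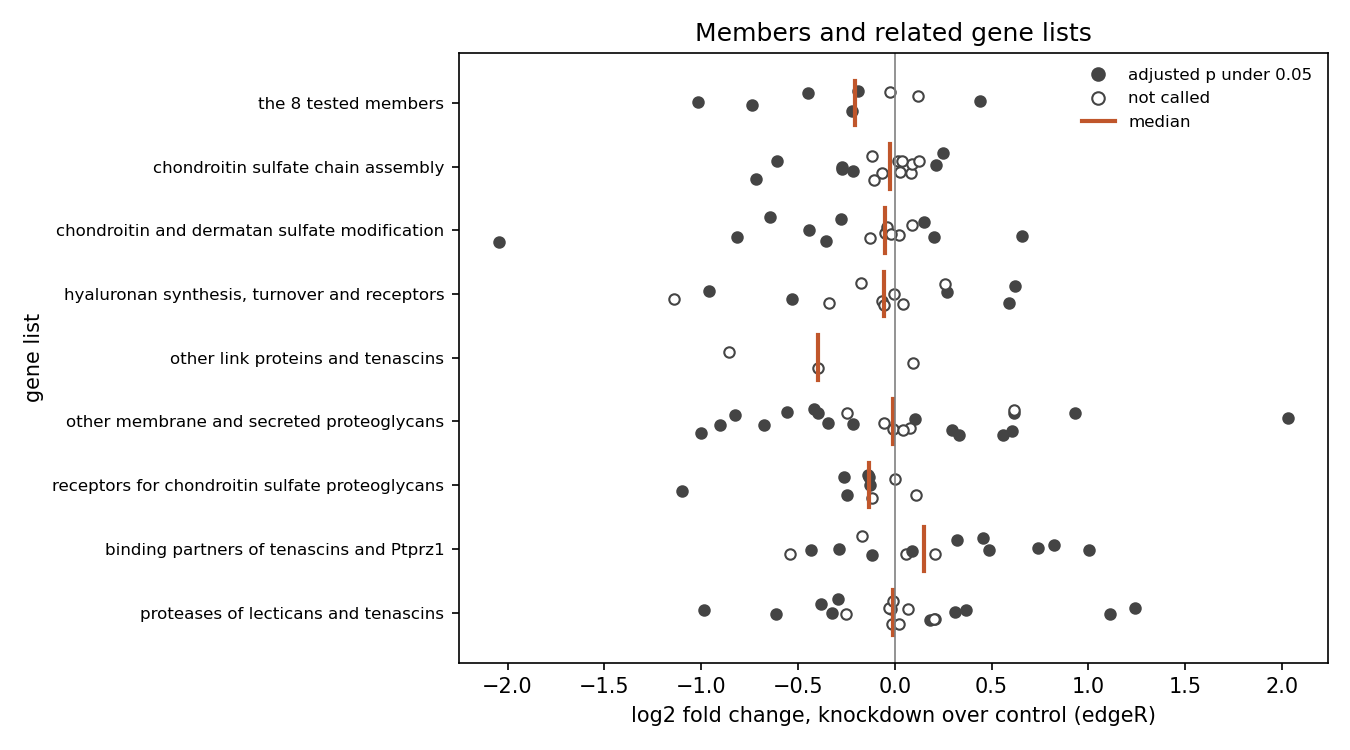
Log2 fold change, knockdown over control, of the 8 tested members and of the tested genes in 8 related lists, with 1 point per gene, filled where the adjusted p was under 0.05, and a vertical bar at each list's median. The medians lie at -0.20 for the members, -0.13 for the receptors and 0.15 for the binding partners, and the chain-building, sulfation and protease lists centre near 0 with calls on both sides.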

How the data were processed

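Levels of polyadenylated RNA were measured in 2 control and 2 knockdown libraries, grouped by their labels. The deposited table held raw counts of reads for each gene, obtained by the authors with HTSeq 0.6.1. Alignment tools listed in the submitters' processing notes were TopHat 1.3.3 with Bowtie 0.12.7 and SAMtools 0.1.18, on mouse build mm9. The study's methods instead describe mm10 and the Illumina iGenomes annotation, joined with assembled lncRNAs, for its RNA-seq, and which of these made the count table was not settled. The counter's strand setting was not given in the sources used here. The library kit does not mark strand, so reads of overlapping genes on opposite strands could not be told apart. Reads outside genes made up 20.1% to 22.2% of the listed reads in each library and stayed out of sizes and tests. Deposited tables of the authors' own fold changes, p-values and ontology terms were not used.

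The test was that of edgeR 4.0.16 (R 4.3.3). After filterByExpr with a minimum count of 10 and a minimum total of 15, 14090 genes were left. TMM scaling, robust quasi-likelihood fits with no covariate and Benjamini-Hochberg adjustment over all tested genes were used, and an adjusted p under 0.05 was called. The code was tested on simulated data. DESeq2 1.42.0, other scalings and filters, a replicate block and leaving out each library were the alternatives. Wilson intervals, the interval of the Acan ratio and floors cover counting error only. Intervals of log2 fold changes came from the quasi-likelihood fits and also hold the spread between libraries. Lengths came from GENCODE, for 12201 of the tested genes, and promoters and gene order from RefSeq.

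All 10 members are named, with up to 4 called genes of each related list that had the smallest adjusted p, the other link proteins and the other tenascins. The members and lists were chosen with earlier results of these data known.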

Additional observations from a re-analysis of the deposited data

Results flagged for a closer look

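Reads that the comparisons did not use differed between the groups. Those with more than 1 alignment made up 10.8% ± 0.134 of listed reads in the control libraries (SD, n = 2) and 11.17% on average in the knockdown libraries (SD 0.0707, n = 2). Reads that fitted several genes averaged 0.4326% of listed reads in the knockdown libraries and were 0.428% and 0.427% in the control libraries. These shares were singled out because both knockdown libraries lay above both control libraries in data that no comparison used. Reads outside genes went the other way and by more. They made up 21.3% and 22.2% of listed reads in the control libraries, against 20.1% and 20.6% in the knockdown libraries. The part of all these unused reads in the results was not tested.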

How the results depend on the processing

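Under 11 alternatives, the number of members called was 5 or 6 (main value 6), and the number of all genes called ran from 4890 to 6781. The 28 called genes named from the related lists kept their call and direction, as did Pdgfra and Pdgfrb. Those 28 had been picked as the called genes of each list with the smallest adjusted p. Their stability therefore does not extend to less clearly called genes. Kcnj8 lost its call without control replicate 2 (log2 fold change 1.865, and 1.81 to 2.34 over the 10 alternatives that tested it). Tnr lost its call with no filter on low counts (adjusted p 0.0577) and without either control library (0.0659 and 0.0529). Its log2 fold change ran from -1.18 to -0.87 as each library was left out. When a knockdown library was left out, the remaining one was assumed to vary like the controls, so the difference between the Tnr levels of the knockdown libraries no longer entered the test. Ptprz1 turned from -0.027 to 0.022 without knockdown replicate 2, ran from -0.079 to 0.022 over the libraries left out, and was called under none of the alternatives. DESeq2 called 6 members and 5082 genes. With the replicate block, 6 members and 6781 genes were called, but the replicate numbers did not pair the libraries (correlation of same-numbered deviations 0.0611 over 14090 genes). Depth limited Acan and Hapln1, each with at most 7 reads in a library.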
